A study of Mus musculus with 3 samples.

Results

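Mitosis and spindle genes encode the cyclins, kinases, motors, kinetochore proteins and proteolysis factors that take a cell from the end of G2 through division. The list of 42 such genes was taken by name and looked up by gene symbol in the array annotation. Of the 42 genes, 41 were found among the 20738 genes measured in all, and Ccnb1 (cyclin B1) was not analysed here. The RNA came from whole proximal jejunum, a stretch of small intestine below the duodenum, of mice labelled Sox4 vilCre KO and of wild-type mice. Villin-Cre is a recombinase active in the intestinal epithelium, so the transcription factor gene Sox4 is targeted there and not in the muscle, stroma, nerve and immune cells that whole jejunum also holds. On each of 3 two-colour arrays, knockout RNA in Cy5 was hybridised with wild-type RNA in Cy3, and each array carried a different knockout mouse. The labels used here give no age, sex or strain, leave unsaid if wild-type RNA was a pool and if those mice carried the Cre, and include no dye swap. Every value below is a log2 ratio of knockout over wild type, so that 0 means equal signal, and an error is the SD over n = 3 arrays. The deposited values hold no separate level for knockout or wild type.

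Within the epithelium of the small intestine, division is confined to the crypts. Stem cells and fast-dividing progenitors there replace the epithelium, while villus cells have left the cycle. Transcripts of mitotic genes accumulate in G2 and fall away after division, under a repressor complex called DREAM in resting cells and the activators B-Myb and Foxm1 with the MuvB complex in dividing ones. Many of their promoters carry a short element near the transcription start, the cell cycle genes homology region (CHR). Lymphocytes and stromal cells that divide express the same genes.

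The arrays were alike in scale, with SDs over all genes of 0.47, 0.50 and 0.46 and medians of -0.03, -0.03 and -0.001 on arrays 1, 2 and 3. Sox4 itself had mean ratios of -0.66, 0.18 and -0.46 over its 3 features, which disagreed on array 2 (1.23, 0.03 and -0.72). The feature with -0.72 there was below wild type on every array (-1.21, -0.72 and -0.93). Which of these features lie in the deleted part is not known here, and directions rest on the labels. The Y-linked gene Eif2s3y (-7.28 ± 0.25) was lower and Xist (1.71 ± 0.18), which coats the inactive X chromosome, higher on every array, so effects of sex and of genotype cannot be told apart in any ratio. Genes of mesenteric fat, blood and exocrine pancreas, tissues outside the epithelium, had list medians of -2.09, -1.29 and -0.42, and their part in the results was not tested. Epithelial identity could not be checked by level, because the values are ratios.

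Most mitosis and spindle genes had ratios above 0. The mean was above 0 for 37 of 41 genes, below 0 for Cenpk, Ect2 and Pttg1 and 0.00 for Aurkb, but only 27 were above 0 when each array was centred on 12 reference genes. Their median was 0.43, where the median of all genes was -0.03, and a member's mean lay at a median percentile of 91.4 among all genes. Means ran from -0.20 (Cenpk) to 0.98 (Cenpf). In all, 21 of the 41 genes lay among the 9.99% of genes with the highest means, and 23 were above 0 on all 3 arrays, as were 23.2% of all genes. Cenpk was the 1 member below 0 on all 3 arrays, as were 27.3% of all genes.

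None of the 41 genes passed limma's moderated test at an adjusted p of 0.05, in either direction. Over all genes, 0.106% were called higher and 0.222% lower. Before adjustment, 20 of the 41 genes had a p under 0.05, all higher, where 12.0% of all genes had one in that direction. It was found for 0 members in the lower direction, where 14.3% of all genes had one. The 3 smallest adjusted p-values among members were 0.0541 (Espl1), 0.0564 (Cenpf) and 0.0648 (Hmmr). The test sets a ratio against 0, and variation among wild-type animals enters it only if the arrays carried different wild-type RNA, which the labels leave unsaid. In whole tissue, fewer or more dividing cells and less or more RNA per cell cannot be told apart.

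**Figure D1:**
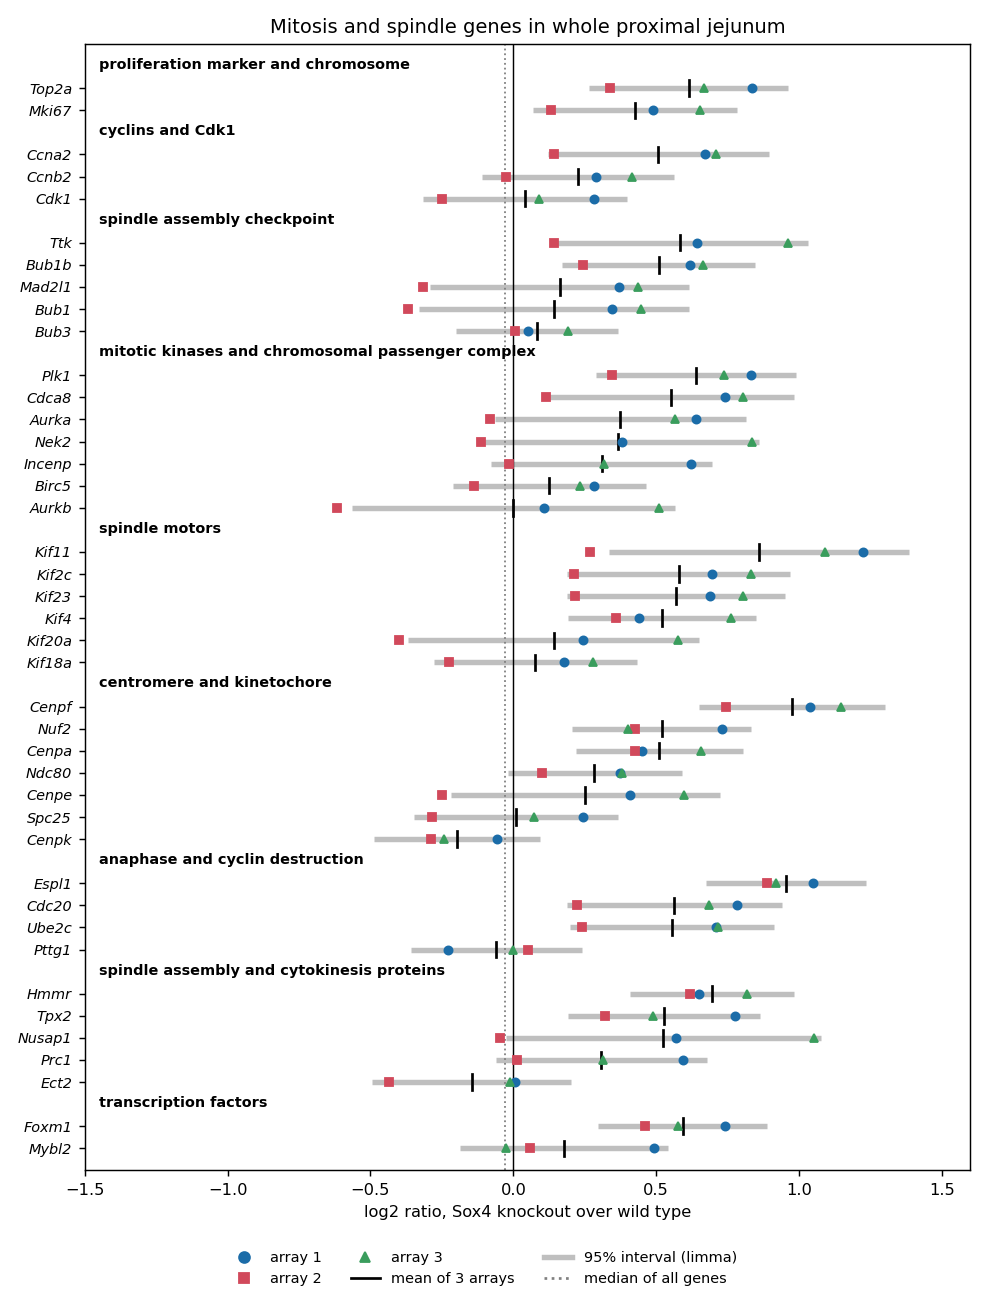
Log2 ratios (horizontal axis) of 41 mitosis and spindle genes by function, with 1 marker per array, a black bar at the mean and a grey bar for limma's 95% interval. Nearly all means lie right of the dotted median of all genes at -0.03, and the array 2 square is leftmost in 38 genes. With each array centred on reference genes, 27 means would lie above 0.

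The list holds a pair of transcription factors, whose 95% intervals overlap and whose difference was not tested. Foxm1, the forkhead factor that activates G2 and M genes, had ratios of 0.74, 0.46 and 0.58 on arrays 1, 2 and 3 (mean 0.59 ± 0.14, adjusted p = 0.0767). All 3 arrays lay above wild type for this gene. Mybl2, encoding B-Myb, had 0.49, 0.06 and -0.02 (0.18 ± 0.28, adjusted p = 0.470), but its 2 features disagreed. The first had 0.35, -0.25 and -0.23, and the other was above 0 on every array, at 0.64, 0.37 and 0.18.

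The cyclins and their kinase had means between 0.04 and 0.51, with overlapping intervals, and differences between them were not tested. Ccna2 encodes cyclin A2, which acts in S phase and G2, and had 0.67, 0.14 and 0.71 (0.51 ± 0.32, adjusted p = 0.126). Ccnb2, encoding cyclin B2, had 0.29, -0.03 and 0.42 (0.23 ± 0.23). Cdk1, the kinase that these cyclins activate to start mitosis, had 0.28, -0.25 and 0.09 (0.04 ± 0.27), so its arrays fell on either side of 0. Its 95% interval, from -0.32 to 0.40, bounds the difference that these arrays allow, and Cdk1 was below 0 after centring on the reference genes (-0.21).

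Mki67 and Top2a, often used to mark dividing cells, were above 0 on every array. Mki67, whose product coats mitotic chromosomes, had 0.49, 0.13 and 0.66 (0.43 ± 0.27, adjusted p = 0.145). Top2a encodes the topoisomerase that untangles sister DNA and had 0.84, 0.34 and 0.67 (0.61 ± 0.25, adjusted p = 0.0863).

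The intervals of the mitotic kinase genes Plk1, Aurka and Nek2 overlap, and differences between these genes were not tested. Plk1, the polo-like kinase of mitotic entry and spindle formation, had the highest mean of its group, with 0.83, 0.35 and 0.74 (0.64 ± 0.26, adjusted p = 0.0836). The spindle pole kinase gene Aurka had 0.64, -0.08 and 0.57, and the centrosome kinase gene Nek2 had 0.38, -0.11 and 0.84. Aurka and Nek2 were above 0 on arrays 1 and 3 and below it on array 2, while Plk1 was above 0 on all 3.

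The chromosomal passenger complex corrects faulty attachments between chromosomes and spindle and later guides cytokinesis. Of its subunits, the borealin gene Cdca8 had 0.74, 0.11 and 0.81 (0.55 ± 0.38). The scaffold gene Incenp had 0.62, -0.01 and 0.32, and the survivin gene Birc5 had 0.28, -0.14 and 0.23. Its kinase gene Aurkb had 0.11, -0.62 and 0.51, which averaged 0.00 ± 0.57, the widest spread over arrays of the 41 genes. The subunits of this complex thus had means between 0.00 and 0.55, and 3 of the 4 were below 0 on array 2.

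Spindle motors were among the highest members, with a group median of 0.55 over 6 kinesin genes. Kif11 encodes Eg5, the motor that pushes spindle poles apart, and had 1.22, 0.27 and 1.09 (0.86 ± 0.52, 95% interval 0.33 to 1.39, adjusted p = 0.0931). The centralspindlin gene Kif23 had a mean of 0.57 ± 0.31, the microtubule depolymerase gene Kif2c 0.58 ± 0.32 and the chromokinesin gene Kif4 0.52 ± 0.21. These 4 genes were above 0 on all arrays. Kif20a, a motor gene of the central spindle, had 0.24, -0.40 and 0.58, and Kif18a, whose product dampens chromosome movement at the metaphase plate, had 0.18, -0.22 and 0.28. Both had means near 0 that turned negative after centring on reference genes (-0.11 and -0.18).

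Spindle assembly proteins resembled the motors in range. Hmmr, which encodes a spindle protein also known as a hyaluronan receptor, had nearly equal ratios of 0.65, 0.62 and 0.82 (0.70 ± 0.11). Tpx2, the activator of Aurora A on the spindle, averaged 0.53 ± 0.23. Nusap1, encoding a protein that bundles spindle microtubules, had 0.57, -0.05 and 1.05 (0.53 ± 0.55, adjusted p = 0.204), so its arrays spanned more than a log2 unit. Prc1, the bundler of the midzone, averaged 0.31 ± 0.29. Ect2, an exchange factor that starts the cleavage furrow, had 0.01, -0.43 and -0.01 (-0.15 ± 0.25).

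The centromere and kinetochore genes held both the highest and the lowest mean of the list. Cenpf, a large coiled-coil protein of the outer kinetochore, had 1.04, 0.75 and 1.15 (0.98 ± 0.21, 1.97-fold higher, 95% interval 0.65 to 1.30). Cenpk, part of the constitutive inner network, had -0.06, -0.29 and -0.24 (-0.20 ± 0.12, adjusted p = 0.329). The centromeric histone gene Cenpa had 0.45, 0.43 and 0.66 (0.51 ± 0.13), with little spread.

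The 4-subunit Ndc80 complex, which holds microtubule ends, is represented by Ndc80, Nuf2 and Spc25. Nuf2 averaged 0.52 ± 0.18, Ndc80 0.28 ± 0.16 and Spc25 0.01 ± 0.27. Their 95% intervals, 0.21 to 0.83, -0.02 to 0.59 and -0.35 to 0.37, overlap, and differences between these subunits were not tested. The kinetochore motor gene Cenpe had 0.41, -0.25 and 0.60 (0.25 ± 0.44).

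In the spindle assembly checkpoint, which delays anaphase until every chromosome is attached, means ran from 0.08 to 0.58. The kinase gene Ttk had 0.64, 0.14 and 0.96 (0.58 ± 0.41, adjusted p = 0.130), and Bub1b, encoding BubR1, had 0.62, 0.24 and 0.66 (0.51 ± 0.23, adjusted p = 0.103). Mad2l1, the Mad2 inhibitor of Cdc20, had 0.37, -0.32 and 0.44 (0.16 ± 0.42). Bub3, an adaptor that also acts in splicing, had 0.05, 0.01 and 0.19 (0.08 ± 0.10). Its 3 arrays lay close together near wild type, with a 95% interval of -0.20 to 0.37.

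Genes of anaphase and cyclin destruction had a median of 0.56. Espl1 encodes separase, the protease that cuts cohesin, and was the member with the smallest SD, at 1.05, 0.89 and 0.92 (0.95 ± 0.09, 1.94-fold higher, 95% interval 0.67 to 1.23, adjusted p = 0.0541). Its partner Pttg1, the securin that keeps separase inactive, had -0.23, 0.05 and 0.00 (-0.06 ± 0.15, 95% interval -0.36 to 0.24). The intervals of this enzyme and its inhibitor do not overlap, although the difference between the genes was not tested. Cdc20, the activator of the anaphase-promoting complex, averaged 0.56 ± 0.30, and Ube2c, the E2 enzyme of that complex, 0.56 ± 0.27, each above 0 on all 3 arrays.

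Several members were measured by more than 1 feature, and these repeats show how far a ratio moves within an array. Bub1, a checkpoint kinase gene, had 10 features, from 0.20 to 0.48 on array 1, from -0.40 to -0.31 on array 2 and from 0.40 to 0.48 on array 3. The SD among them was 0.09, 0.04 and 0.03 within the 3 arrays. These features are repeat measures of 1 RNA on each array and say nothing of the spread between mice.

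Other members had features that disagreed. The 2 features of Ect2 had 0.31 and -0.29 on array 1, -0.42 and -0.45 on array 2, and 0.48 and -0.50 on array 3, so the mean near 0 joins features of opposite sign. For Foxm1, 1 feature had 0.91, 0.92 and 0.79 on arrays 1, 2 and 3, and the other 0.57, 0.01 and 0.36. On array 2 the features of Nuf2 had 0.78 and 0.07, and those of Tpx2 had 0.06 and 0.58. Feature means over the arrays differed in sign for Birc5 (0.213, 0.225 and -0.06), Cdk1 (0.069, 0.083 and -0.028) and Mad2l1 (0.238, 0.276 and -0.026). The features of Cenpk had 0.087 and -0.2 on array 1 and were below 0 on the other arrays. Which transcripts the features of these genes detect was not examined. No member feature passed the threshold when features were tested one by one.

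**Figure D2:**
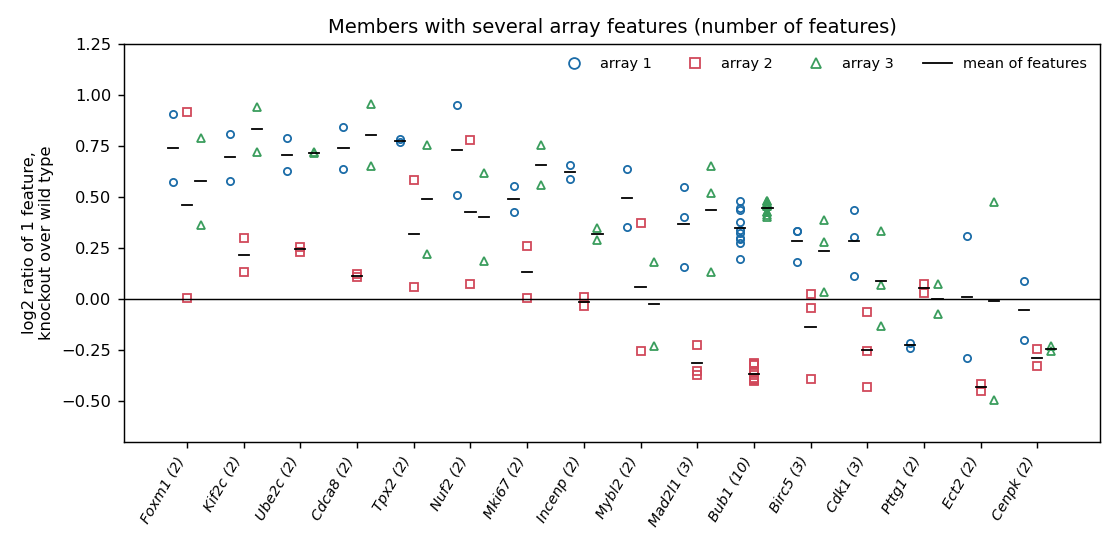
Log2 ratios of single features (vertical axis) for the 16 members with more than 1 feature, 3 arrays side by side, with black bars at the mean of the features. The 10 Bub1 features form a tight group on each array, while the 2 Ect2 features lie on opposite sides of 0 on arrays 1 and 3.

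Array 2 stood apart in nearly all of these genes, a pattern singled out after the values were seen. Over all genes its ratios also correlated less with arrays 1 and 3 (Pearson 0.43 and 0.41) than those arrays did with each other (0.57). Whether the mouse or something else about that array differed was not tested. Array 2 gave the lowest of the 3 ratios in 38 of 41 members, where 37.8% of all genes were lowest on it. Pttg1 was lowest on array 1, and Nuf2 and Mybl2 were lowest on array 3. The 3 arrays had member medians of 0.57, 0.10 and 0.58 in order. Above 0 were 39 members on array 1 and 37 on array 3, against 25 on array 2, where 16 were below 0. Of all genes, 46.7%, 46.3% and 49.4% were above 0 on arrays 1, 2 and 3. Array 2 minus the mean of arrays 1 and 3 had a median of -0.44 over the members and of -0.02 over all genes, and ran from -0.93 (Aurkb) to 0.17 (Pttg1).

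Members differed in how much array 2 departed. Kif11 was 0.89 lower and Nusap1 0.86 lower on array 2 than on the mean of the other arrays. Espl1 (0.10 lower), Hmmr (0.11 lower) and Cenpa (0.13 lower) hardly departed. Espl1, Cenpf and Hmmr were the members with the highest ratios on array 2, at 0.89, 0.75 and 0.62. Their adjusted p-values, the smallest among members, are computed from these same ratios and are not a separate observation. Without array 2 the members' median was 0.57, and 30 of 41 had an unadjusted p under 0.05 in the higher direction, where 10.2% of all genes had one. None passed an adjusted p of 0.05 there either, and the smallest was 0.0695 for Kif11.

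Other lists also differed on array 2. Sox4, averaged over features that disagreed, was above 0 there and below 0 on arrays 1 and 3. Smooth muscle genes had a median of 0.35 on array 2 and of -0.34 and -0.44 on arrays 1 and 3, with 2 of 8 genes above 0 on average. Mast cell genes had a median of 0.02 on array 2, against -3.50 and -2.39 on arrays 1 and 3. Crypt base stem cell genes had medians of 0.01, 0.28 and -0.02, so they were not lowest on array 2. The part of these tissue differences in the mitotic ratios was not tested.

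**Figure D3:**
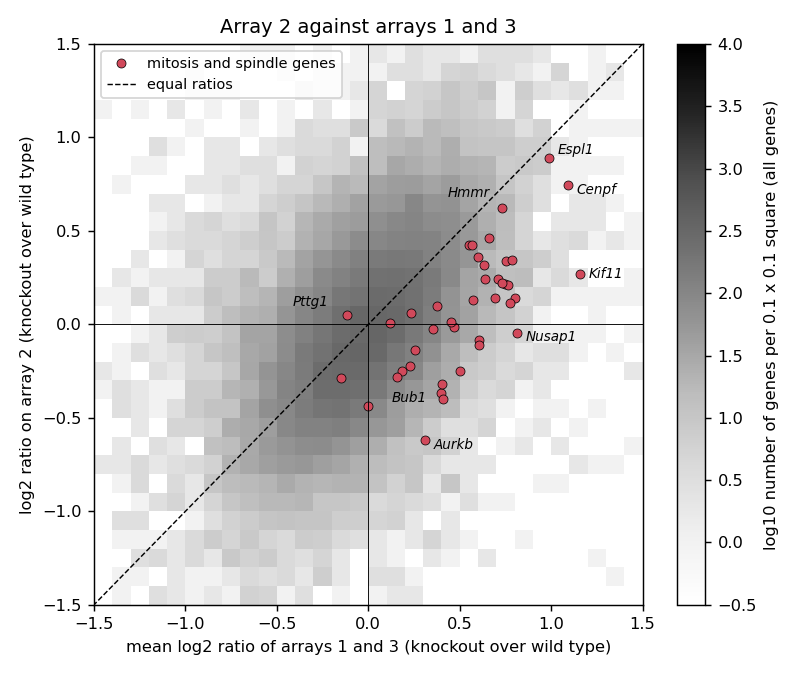
Log2 ratio on array 2 (vertical axis) against the mean of arrays 1 and 3 (horizontal axis) for the 41 members (red), over a grey map of all genes on a log10 scale of counts. Nearly all members lie below the dashed line of equal ratios, with Espl1 and Hmmr close to it and Kif11, Aurkb and Nusap1 far below.

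Genes of mitosis and cell cycle control outside the 42, in 7 lists with 175 measured genes, had a smaller median of 0.10. Their array medians were 0.22, -0.10 and 0.14. These lists also hold genes that do not act in mitosis alone, such as the G1 cyclin gene Ccnd1. None of the 175 passed an adjusted p of 0.05 by limma. At an unadjusted p under 0.05, 34 were higher (19.4%, against 12.0% of all genes) and 14 lower (8.0%, against 14.3%). Array 2 was lowest in 108 of the 175 (61.7%, against 37.8% of all genes).

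Other motors and microtubule proteins had a median of 0.18 over 30 genes, with 10 higher (33.3%, against 12.0% of all genes) and 1 lower (3.33%, against 14.3%) at an unadjusted p under 0.05. The kinesin gene Kif18b had 1.34, 0.81 and 1.05 (1.07 ± 0.27, adjusted p = 0.0568), and Troap, encoding a spindle-associated protein, averaged 0.70 ± 0.11. Numa1, whose product focuses spindle poles, had -0.62, -0.73 and -0.89 (-0.74 ± 0.14, adjusted p = 0.0640).

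Other kinetochore and centromere genes had a median of 0.12 over 35 genes, with 7 higher (20.0%, against 12.0% of all genes) and 1 lower (2.86%, against 14.3%) at an unadjusted p under 0.05. Pmf1, of the Mis12 complex, averaged 0.80 ± 0.21, the inner kinetochore genes Cenpt 0.79 ± 0.14 and Cenpn 0.60 ± 0.16. Cenpk (-0.20), a gene of the same network, had a mean of the other sign. Its interval, from -0.487 to 0.095, spans 0, and its difference from these genes was not tested. The genes named here have the smallest p of their list and do not stand for all of it. In that list 27 genes had means above 0 and 8 below, among the latter Cenph (-0.113) and Cenpq (-0.107).

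Other kinases and entry regulators had a median of 0.10 over 25 genes. At an unadjusted p under 0.05, 5 were higher (20.0%, against 12.0% of all genes) and 3 lower (12.0%, against 14.3%). Cdc25b and Cdc25c, phosphatases that activate Cdk1, averaged 0.67 ± 0.10 and 0.52 ± 0.26, and the cyclin gene Ccna1, known from male germ cells, 0.88 ± 0.30. Condensin and cohesin genes had a median of 0.05 over 21 genes, with 1 higher at an unadjusted p under 0.05 (4.76%, against 12.0% of all genes), the condensin gene Ncapd2 (0.57 ± 0.08). Next in order of p in that list were Esco1 (-0.24 ± 0.12), which acetylates cohesin, and Ncaph2 (0.20 ± 0.05).

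Subunits and regulators of the anaphase-promoting complex had a median of -0.04 over 19 genes. Its activator gene Fzr1, encoding Cdh1, averaged 0.53 ± 0.17, Cdca3 0.46 ± 0.28 and the subunit gene Cdc26 -0.34 ± 0.18. Cytokinesis genes had a median of 0.09 over 13 genes, and the 3 with the smallest p, Septin7 (-0.51 ± 0.08), Arhgef2 (-0.46 ± 0.15) and Tsg101 (-0.34 ± 0.08), were below 0 on every array.

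Genes of the DREAM and MuvB complexes and of E2F control, the regulators of the mitotic programme, had a median of 0.11 over 32 genes. Rbl2, encoding the p130 repressor of DREAM, had 0.64, 1.11 and 1.09 (0.95 ± 0.27, adjusted p = 0.0634), and E2f4, its DNA-binding partner, averaged 0.80 ± 0.27. Ccnd1, the cyclin D1 gene of G1, averaged 0.78 ± 0.26. Array 2 was lowest in 12 of these 32 genes, a share near that of all genes.

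DNA replication genes, which act in S phase just before the mitotic genes, had a median of -0.02 over 49 genes, with array medians of 0.11, -0.14 and 0.04. Of them 24 had means above 0 and 25 below. At an unadjusted p under 0.05, 9 were higher (18.4%, against 12.0% of all genes) and 5 lower (10.2%, against 14.3%). Pold2, a DNA polymerase subunit gene, averaged 0.95 ± 0.15, Mcm5, of the replicative helicase, 0.54 ± 0.09 and Chaf1a, a chromatin assembly gene, 0.43 ± 0.11. These genes have the smallest p of the list and do not stand for all of it. Among the 25 with means below 0 were Pcna (-0.45 ± 0.20) and Mcm6 (-0.33 ± 0.22), of the same helicase as Mcm5. The difference between the mitotic and the replication list was not tested. The reference genes had array medians of 0.31, 0.19 and 0.26, above the median of all genes too. On arrays 1 and 3 the median of the mitosis and spindle genes lay above theirs, and on array 2 it lay below.

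**Figure D4:**
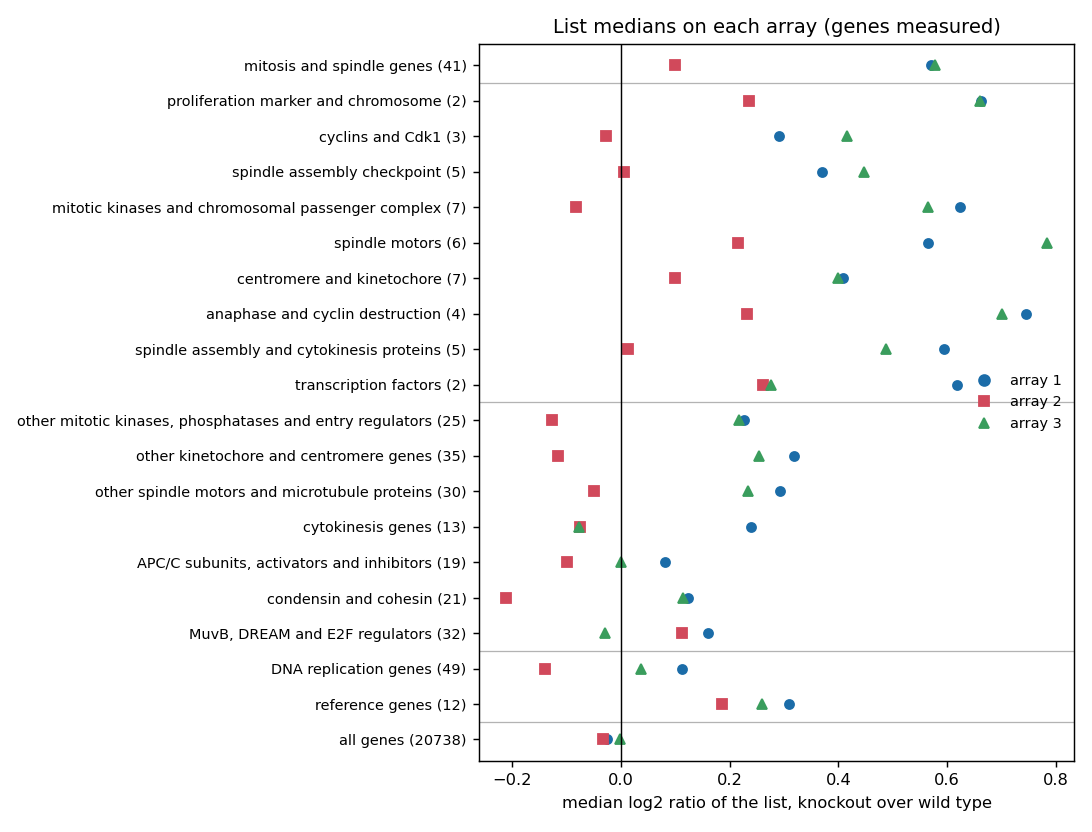
Median log2 ratio of each gene list (horizontal axis) on arrays 1, 2 and 3, with the number of measured genes in parentheses. The 41 mitosis and spindle genes have medians of 0.57, 0.10 and 0.58, above those of DNA replication genes (0.11, -0.14 and 0.04) on every array, while reference genes have 0.31, 0.19 and 0.26.

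Promoter sequence, which the ratios did not use, was read as a description. The CHR and the CCAAT box were searched because they are known elements of mitotic gene promoters. A high share among the members was thus built into the choice and is not a separate observation. RefSeq promoter entries of mouse build GRCm38.p6, each 300 bases long from 250 before the annotated start of transcription, were found for 36 of the 42 genes. The CHR was searched as TTTGAA or TTCGAA and the CCAAT box as CCAAT, each on both strands, and neighbouring matches of the 2 motifs may share an end letter. From 100 bases before the start to 50 after it, a CHR stood in 24 of 36 member genes (66.7%), against 9.87% of 27025 genes in the promoter table. A CCAAT box stood in the same window in 25 of 36 (69.4%), against 26.3%, and both motifs in 21 of 36 (58.3%), against 2.40%. Such matches describe letters and are not evidence of binding.

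Ratios of members with and without a CHR were compared as a description, with no test. The 24 measured genes with a CHR in this window had a median of 0.52 and a range of -0.15 to 0.98. The 11 measured genes without one had a median of 0.18 and a range of -0.20 to 0.58, so the medians differ and the ranges overlap. Genes without a CHR match there include Nusap1 (0.53), Nuf2 (0.52) and Kif2c (0.58), as well as Cenpk and Pttg1, both below 0.

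The 100 bases before the start are shown for 4 members with mean ratios from 0.56 (Cdc20) to 0.95 (Espl1). They are also shown for 2 with means near 0 whose promoters hold the same elements. Capitals mark CHR letters (TTTGAA, or TTCAAA on the other strand) and CCAAT letters (or ATTGG on the other strand).
Espl1, chr15:102296193-102296292, plus strand: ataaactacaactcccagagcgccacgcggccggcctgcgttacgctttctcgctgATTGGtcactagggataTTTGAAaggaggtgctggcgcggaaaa
Kif11, chr19:37376282-37376381, plus strand: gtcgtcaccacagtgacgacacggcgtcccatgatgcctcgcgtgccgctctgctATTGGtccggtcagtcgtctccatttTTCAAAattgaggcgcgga
Top2a, chr11:99024190-99024289, minus strand: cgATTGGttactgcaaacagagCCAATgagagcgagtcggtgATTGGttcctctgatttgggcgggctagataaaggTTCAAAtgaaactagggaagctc
Cdc20, chr4:118437344-118437443, minus strand: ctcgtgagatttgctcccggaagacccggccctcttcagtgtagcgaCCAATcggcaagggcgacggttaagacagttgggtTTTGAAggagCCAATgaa
Cdk1, chr10:69352913-69353012, minus strand: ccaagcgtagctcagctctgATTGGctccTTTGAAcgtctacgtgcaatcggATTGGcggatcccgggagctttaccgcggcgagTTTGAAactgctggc
Bub3, chr7:131560270-131560369, plus strand: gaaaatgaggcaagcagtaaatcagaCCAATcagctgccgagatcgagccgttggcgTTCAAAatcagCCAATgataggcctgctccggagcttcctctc

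In Espl1 and Kif11, a CCAAT box on the other strand stands ahead of the CHR, and the mean ratios were 0.95 and 0.86. Cdk1 (0.04) and Bub3 (0.08) also hold matches of both motifs, those of the CCAAT box in Bub3 on the sense strand, and had ratios near 0.

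In other members a CHR lies after the start, as in the 30 bases shown for 3 genes with high ratios and for 2 with means of 0.01 and -0.15. Ect2 also holds a CHR match before the start, outside the bases shown. Capitals again mark the CHR.
Cenpf, chr1:189688067-189688096, minus strand: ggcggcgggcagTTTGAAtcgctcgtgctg
Hmmr, chr11:40733412-40733441, minus strand: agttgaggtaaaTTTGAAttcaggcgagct
Plk1, chr7:122159453-122159482, plus strand: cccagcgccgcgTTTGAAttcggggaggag
Spc25, chr2:69206172-69206201, minus strand: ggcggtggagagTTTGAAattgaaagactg
Ect2, chr3:27153829-27153858, minus strand: gagagagcgactggattttTTTGAAtcgga

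Cenpf, Hmmr and Plk1 had means of 0.98, 0.70 and 0.64, and all 5 windows hold the sense letters TTTGAA.

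**Figure D5:**
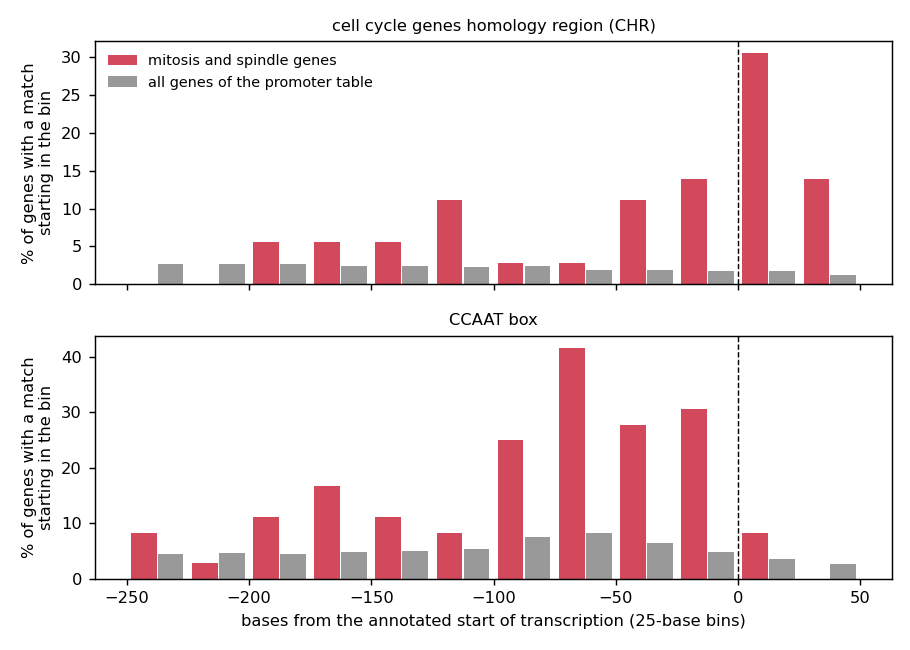
Share of genes (vertical axis, percent) with a match starting in each 25-base bin along the promoter (horizontal axis, bases from the annotated start), for 36 member genes (red) and 27025 genes of the promoter table (grey). CHR matches of the members peak in the first 25 bases after the start (30.6% of members, against 1.68%), and CCAAT matches from 75 to 50 bases before it (41.7%, against 8.21%).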

How the data were processed

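The deposited values were read as log2 ratios of knockout (Cy5) over wild type (Cy3), with channels and dyes per the labels. The normalization, log base and direction of division the authors used were not given in the sources used here, and every sign would turn if the ratio ran the other way. No intensities were used, so no filter on dim features was possible. With 3 arrays, precision is limited by their number. Of 62976 features, 31465 had 1 gene symbol in the platform annotation, updated through RefSeq, and 31511 were unnamed here. Features were averaged into 20738 genes, tested two-sided against 0 with limma 3.58.1 (lmFit, eBayes, R 4.3.3) with Benjamini-Hochberg adjustment over all genes. The step was tested on simulated data of independent genes without dye effects, so shifts shared by many genes on 1 array were not covered. Ratios of 1 dye orientation carry gene-specific dye effects that cannot be told apart from genotype. Whether the arrays differ in more than the mouse is not stated, so p-values measure only the spread between these 3 samples.

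The members and lists were chosen with earlier results of these data known. Every member is counted. Values by array are given for the members of each functional group with the smallest p or a mean on the other side of 0 from their group, for members with features of opposite sign, and for further members chosen after their values were seen. Of each other mitotic list the 3 genes with the smallest p are named, and of some lists also genes with means below 0. Alternatives were leaving out each array, 2 centrings, quantile normalization, the median of features, robust eBayes, array weights, genes with at least 2 features, and features tested one by one.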

Additional observations from a re-analysis of the deposited data

How the results depend on the processing

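The members' median stayed between 0.17 and 0.57 under the alternatives run on all 41 genes, with the low end under centring on reference genes. That centring moved the median of all genes to -0.28, shifting all genes alike on each array. Under it Espl1, Cenpf and Hmmr were called higher (3 members) and Cenpk lower (1 member), 7 members were higher and 2 lower at an unadjusted p under 0.05, and 4382 genes were called in all, 205 higher and 4177 lower, against 68 (22 and 46) as reported. Under it 14 members had means below 0, of which Cenpk, Ect2, Pttg1 and Aurkb were at or below 0 before. The means that turned negative were -0.026 for Ccnb2, -0.21 for Cdk1, -0.11 for Bub1, -0.17 for Bub3, -0.089 for Mad2l1, -0.13 for Birc5, -0.11 for Kif20a, -0.18 for Kif18a, -0.24 for Spc25 and -0.075 for Mybl2. Array weights (1.44, 0.69 and 1.01) gave 2 members called higher, Cenpf and Espl1, and 265 genes in all. Among the 6171 genes with at least 2 features, 1 of 16 members, Foxm1, was called, 7 were higher at an unadjusted p under 0.05, and 226 genes were called. Leaving out 1 array gave 9 to 30 members higher at an unadjusted p under 0.05 (9 without array 1, 30 without array 2 and 11 without array 3), 0 members called by limma, and 10, 66 and 4 genes called in all. Means then ran from -0.08 to 0.19 for Cdk1, -0.11 to 0.16 for Spc25, -0.11 to 0.026 for Pttg1, -0.01 to 0.40 for Bub1, -0.078 to 0.41 for Kif20a and -0.024 to 0.23 for Kif18a. The causes of these shifts were not tested. Each ratio sets knockout against wild type within 1 array, so the test against 0 already uses that pairing, and no further paired analysis was run.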

Other observations

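Repeated features show how far single values of a gene differ within an array. Over the 385 genes with at least 10 features, the median SD among a gene's single features was 0.11, 0.07 and 0.09 on arrays 1, 2 and 3. The median SD over the arrays was 0.19, but it is taken on the mean of a gene's features and is an unlike measure. These genes do not stand for those with fewer features. On array 3 the 2 features of Ect2 had an SD of 0.69 and the 2 of Ube2c one of 0.004. The median SD over the arrays was 0.27 for the 41 mitosis and spindle genes and 0.22 for all genes.

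Lymphocytes, which also divide in the gut wall, had ratios of their own. T cell genes had list medians of -0.42, -0.51 and -0.51 on arrays 1, 2 and 3, with 7 of 10 genes below 0 on all 3 (27.3% of all genes were), and B cell and germinal centre genes had 0.15, 0.10 and 0.28. Among crypt base stem cell genes, Lgr5 had -0.60, -0.67 and -0.04 and Olfm4 had 0.29, 0.93 and 0.62, so these markers lay on opposite sides of 0. None of these lists held a gene past an adjusted p of 0.05 by limma, and their part in the mitotic ratios was not tested.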
